A study of Mus musculus with 12 samples.

Results

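Uninduced C2C12 myoblasts that received an siRNA against Zfp143 were compared with uninduced cells that received a non-targeting siRNA. Each side has 3 libraries, so the comparison rests on 6 of the 12 libraries of the series, chosen by the deposited count columns of these samples. C2C12 is an established mouse line of muscle precursor cells, labelled wild type. Both groups were transfected with a lipid reagent (Lipofectamine) in growth medium with 10% fetal bovine serum, and were harvested 24 hours after transfection. The remaining 6 libraries come from cells given the same siRNAs and then kept for 5 days in medium with 1% horse serum, and are used here for the comparison of the effect before and after induction and, in the fit, for the shared estimate of spread. The knockdown is transient, the labels do not give the siRNA sequences, and they place all libraries in 1 batch. Whether replicates were grown as separate cultures is not stated, and the p-values here reflect only how much these libraries vary, which may be technical. Reads carry no strand information, and a gene cannot be told apart from an overlapping or antisense partner.

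Zfp143 encodes ZNF143 (also called Staf), a zinc finger transcription factor that binds a long, well-defined element close to transcription starts. It was first known as an activator of small nuclear RNA genes and of the gene of the selenocysteine transfer RNA. It is also found at many promoters of protein-coding genes for basic cell functions, often near CTCF and cohesin, the proteins that hold chromatin loops. In muscle the state before induction is one of proliferating precursors that hold Myod1 and Myf5, the regulators that commit cells to the muscle lineage.

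Each library held between 18060819 and 19068323 estimated counts. Of the 10 myoblast markers, 9 were measured: Des, the gene of the muscle filament desmin, Chrna1, of the acetylcholine receptor, and Itga7, of the laminin receptor, were all above 100 CPM (counts scaled to library size with TMM factors) in all 6 libraries, Myod1 lay between 4.84 and 8.19 CPM, and Pax7, of quiescent satellite cells, had 3 counts in all. The summed level of the 9 markers ran from 875.9 to 947.6 CPM with the control siRNA and from 902.0 to 982.2 CPM with the Zfp143 siRNA. Of the 9, 1 was called higher (0 without control replicate 2) and 2 lower, Myf5 among the latter (log2 fold change -1.75). Smooth muscle markers moved with the siRNA: 4 of 7 were measured, all 4 were called higher (2 without knockdown replicate 3), and their sum ran from 38.1 to 57.4 CPM in controls and from 85.9 to 106 CPM in knockdown libraries, while the defining markers Myh11 and Cnn1 had 15 and 3 counts over the 6 libraries. Of 8 leukocyte markers 4 were measured and 2 of these, Cd68 and Csf1r, were called higher (summed levels 22.6 to 31.1 and 31 to 38.9 CPM), while Adgre1 stood at 0 and Ptprc, which marks all leukocytes, had 8 counts over the 6 libraries. Of 8 endothelial markers 3 were measured, with sums of 5.16 to 6.68 and 4.85 to 7.68 CPM; Cldn5 and Erg were at 0. In bulk RNA, fewer cells of a type and less RNA per cell cannot be told apart.

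Uninduced control replicate 3 stood apart and touches many of the results that follow. Its mitochondrially encoded genes took 6.02% of counts, against 2.63% and 2.90% in control replicates 1 and 2 and 3.55% to 3.95% in the knockdown libraries, and its TMM factor was 0.799 against 0.929 to 0.991 in the other 5. The first principal component of the 6 libraries held 58.4% of the variance and parted the siRNAs. The second held 18.4% and parted control replicate 3 from the rest. Its 100 most abundant genes took 26.6% of counts, against 20.8% and 21% in the other controls and 23.5% to 24.4% in knockdown libraries. Some other measures parted the siRNAs. More genes were detected in knockdown libraries (20640 to 20992) than in controls (18576 to 19727). The mitochondrial ribosomal RNA mt-Rnr1, which has no role as a message, stood at 459.7, 403 and 1544 CPM in controls and 3150.1, 3046 and 2968 CPM in knockdown libraries (log2 fold change 1.93, SE 0.376). The part of these differences, and of the smooth muscle markers, in the results was not tested.

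Zfp143 itself was measured first. Its level was 23.2, 27.8 and 39.8 CPM in the 3 control libraries and 12.2, 11.9 and 10.1 CPM in the 3 knockdown libraries, and every knockdown library lay below every control. The log2 fold change was -1.41 (SE 0.183; edgeR adjusted p = 6.12e-05), and its exact two-sided permutation p was 0.1, the smallest that 3 against 3 libraries allow. Without control replicate 3, the highest control, the log2 fold change was -1.15.

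At an adjusted p under 0.05 edgeR called 4886 of 15030 tested genes (32.5%), 2311 higher (15.4%) and 2575 lower (17.1%) with the Zfp143 siRNA. Here a gene is said to have risen or fallen only when it was called. Counts for the lists below are to be read beside these 15.4% and 17.1%. Changes of more than 2-fold were mostly increases: 1169 genes (7.78%) rose and 580 (3.86%) fell by more than that. With each of the 6 libraries left out in turn, 1516 genes (10.1%) stayed called higher and 1431 (9.52%) called lower. The count of lower genes was 1629 without knockdown replicate 1 and 1716 without knockdown replicate 3. The 2 groups' ranges were apart for 6587 genes (43.8%). Many list members named below were chosen for a small p that held with each library left out. Groups that do not overlap in those genes follow largely from that choice. The median log2 fold change of all tested genes was -0.042.

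**Figure D1:**
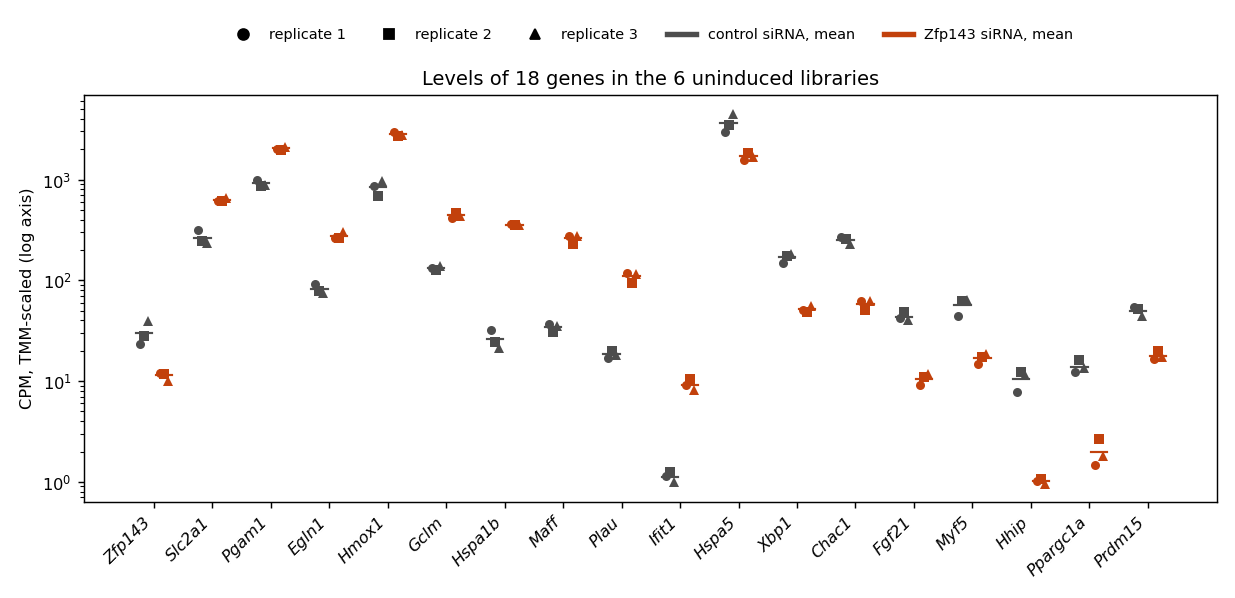
Levels of 18 genes in the 6 uninduced libraries, as CPM on a log axis; each point is 1 library (marker shape gives the replicate), bars are group means, grey is the control siRNA and orange the Zfp143 siRNA. The 2 groups do not overlap for any of these genes: Zfp143 and the 8 genes from Hspa5 to Prdm15 are lower, and the 9 from Slc2a1 to Ifit1 are higher in knockdown libraries.

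Large changes were taken from genes that averaged 5 CPM or more in whichever group was higher and stayed called with each library left out. The groups also had to be apart, so a lack of overlap in these genes was a condition of the choice. Several of the largest increases started from a few CPM in control cells. Sema7a, a membrane-anchored semaphorin, had 6.19, 3.57 and 3.35 CPM with the control siRNA and 89.5, 64.5 and 93.6 CPM with the Zfp143 siRNA (log2 fold change 4.23, SE 0.227; edgeR adjusted p = 2.72e-08). Tigit, known as an inhibitory receptor of lymphocytes, went from 2.45, 2.52 and 2.82 to 45.6, 39.8 and 53.1 CPM (4.15, SE 0.198). Arc, an activity-regulated gene of neurons, went from 5.33, 3.73 and 2.69 to 58.6, 61.6 and 63.7 CPM (3.95, SE 0.181). Others of this size were Sprr2h (4.49), Gpr35 (4.2), Trem2 (3.98), Slco4a1 (3.79), Hspa1b (3.76), Adm (3.61), Prdm1 (3.59) and Cd53 (3.46), all as log2 fold changes. Prl2c3 (3.63) belongs to a family of near-identical genes, so its share of the reads is uncertain.

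Losses are given under the same limits. Hhip, which encodes a protein that binds and holds back Hedgehog ligands, had 7.72, 12.3 and 11.4 CPM in controls and 1.03, 1.06 and 0.961 CPM in knockdown libraries (log2 fold change -3.36, SE 0.285; edgeR adjusted p = 1.15e-06). Ppargc1a, the gene of the coactivator PGC-1 alpha that drives mitochondrial biogenesis, went from 12.2, 16.1 and 13.4 to 1.48, 2.66 and 1.81 CPM (-2.81, SE 0.24). Gfra1, a receptor subunit for GDNF, went from 79.3, 94.3 and 79.7 to 12.2, 17.5 and 14.7 CPM (-2.51, SE 0.141). G0s2 (-2.57), a lipase inhibitor, Lama1 (-2.44), a laminin chain, Robo2 (-2.18), a guidance receptor, and Zfp961 (-2.25) followed. Myf5 fell as well, from 44.3, 62 and 64.1 to 14.8, 17.2 and 18.8 CPM (-1.75, SE 0.151; edgeR adjusted p = 1.52e-06), while Myod1 had 7.28, 7.57 and 5.91 and 6.56, 4.84 and 8.19 CPM and was not called (-0.09, SE 0.241; adjusted p = 0.822).

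Among abundant transcripts Spp1, which encodes osteopontin, rose from 2429, 2414 and 4325 to 6169.6, 5242 and 5557 CPM, and Fth1, the heavy chain of ferritin, from 3885, 3464 and 3168 to 5840.0, 5045 and 5991 CPM. The ubiquitin gene Ubb rose with a log2 fold change of 0.69 (SE 0.151). Fallen abundant transcripts were the chaperone gene Hspa5, the mitochondrial folate enzyme gene Aldh1l2 (-1.24), Igfbp5 (-1.63), which encodes a binding protein of insulin-like growth factors and went from 1465, 1564 and 1108 to 396, 454 and 485 CPM, and Col3a1 (-0.98), of type III collagen.

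Calls differed with transcript length. Of the protein-coding genes in the shortest of 4 equal bins by effective length 18.6% rose and 6.09% fell, with a median log2 fold change of 0.104. In the longest bin, above 3991 bases, 9.13% rose and 38.8% fell, with a median of -0.336. Against control replicates 1 and 2, each knockdown library had a median difference between 0.111 and 0.301 in the shortest bin and between -0.422 and -0.232 in the longest. Against control replicate 3 these medians were -0.141 to -0.008 and -0.225 to -0.065, so the gap between short and long genes was narrower or turned round against that library. When a smooth trend on length was taken out of each library, an alternative chosen after this was seen, edgeR called 2608 genes higher and 1913 lower, and 3836 of the 4886 genes were called again in the same direction and 1 in the opposite. That value is given below for lists with more than 1 in 3 members in the longest bin.

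**Figure D2:**
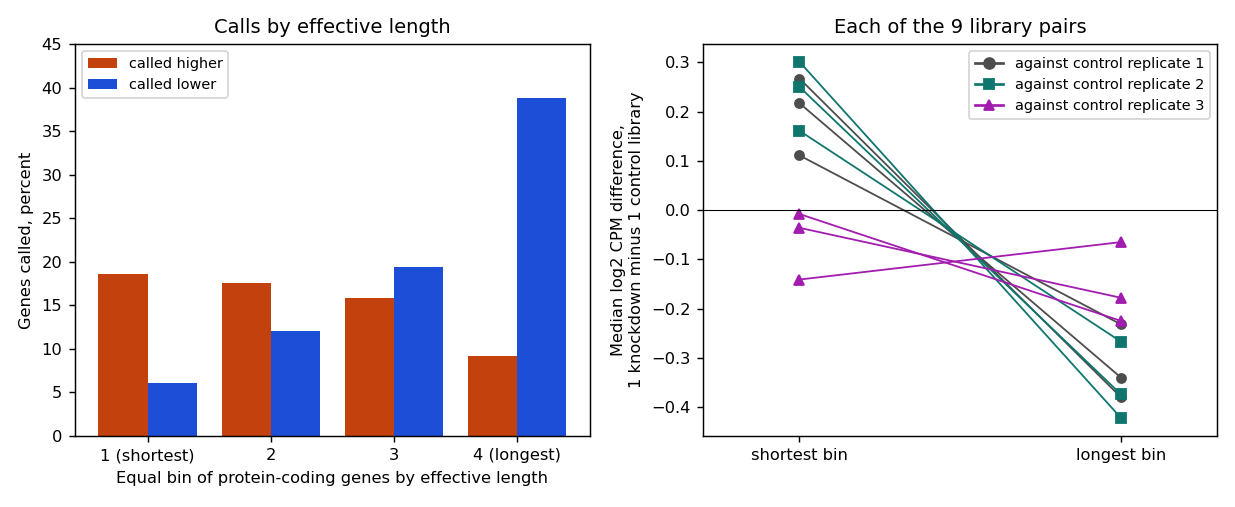
Left, percent of protein-coding genes called higher or lower in each of 4 equal length bins by effective length; 38.8% of the longest bin are called lower. Right, median log2 CPM difference of the shortest and longest bins for each of the 9 pairs of 1 knockdown and 1 control library, coloured by control replicate; the lines against control replicate 3 are the flattest.

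Genes of glycolysis rose almost as a block. Of 25 measured members 20 were called higher, against 15.4% of all genes, and their median log2 fold change was 0.642. Slc2a1, the main glucose transporter of these cells, had 316, 247 and 234 CPM with the control siRNA and 613, 615 and 657 CPM with the Zfp143 siRNA (log2 fold change 1.24, SE 0.145; edgeR adjusted p = 2.41e-05). Hk2, the hexokinase that commits glucose to the pathway, went from 296, 256 and 225 to 451, 526 and 517 CPM (0.94, SE 0.132). Pgam1, of phosphoglycerate mutase, went from 999, 859 and 886 to 1996, 1986 and 2125 CPM (1.15, SE 0.128). The groups did not overlap in any of these. Ldha, of the lactate dehydrogenase that makes lactate from pyruvate, rose too (0.88, SE 0.165; edgeR adjusted p = 0.00105). The count was 22 without control replicate 3, 20 with the length trend removed and 14 to 22 over the settings that change the test, scaling or filter and those that leave out 1 library. Pyruvate entry and the citric acid cycle had 1 member higher and 3 lower of 32 (4 higher without control replicate 3, 6 lower without control replicate 1).

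**Figure D3:**
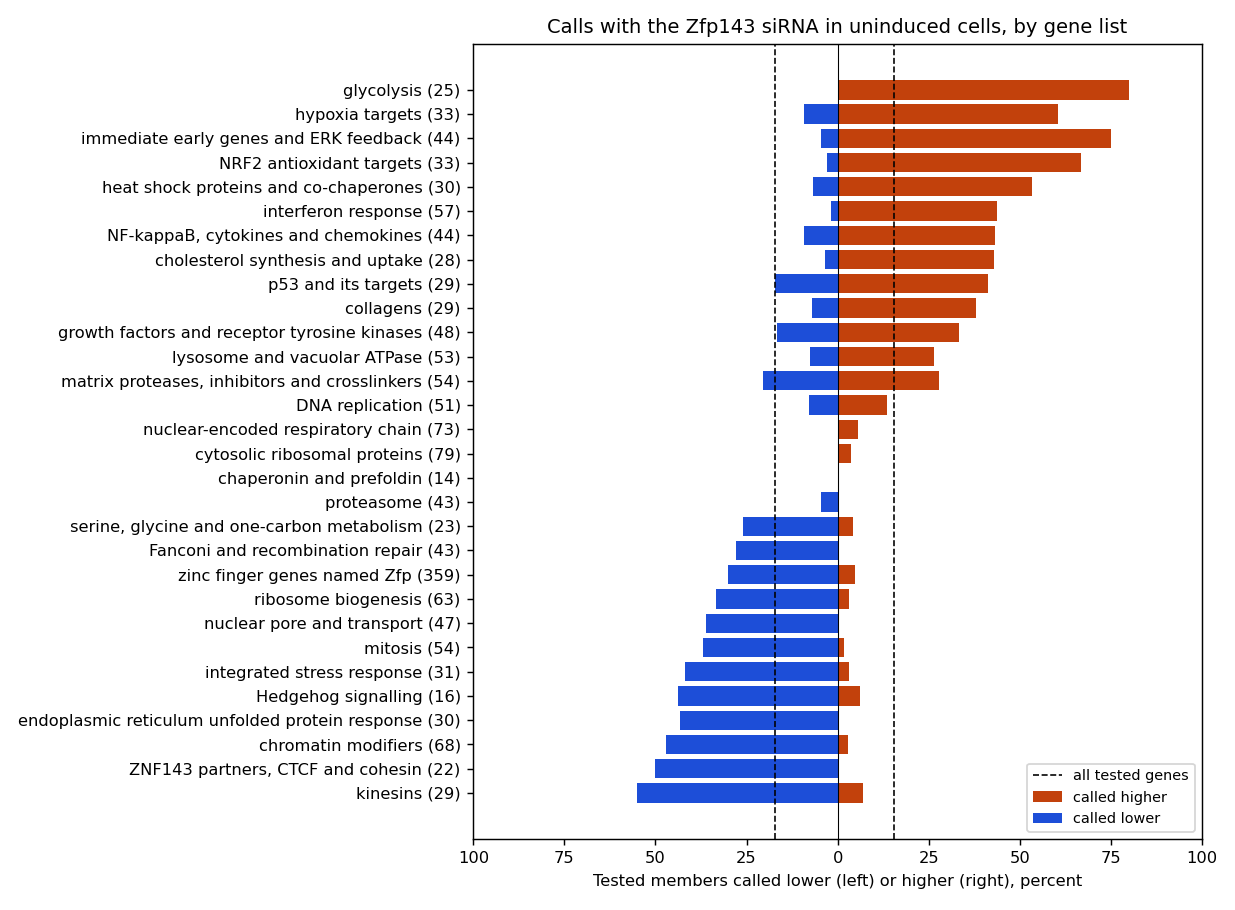
Percent of the tested members of 30 gene lists that edgeR called lower (left, blue) or higher (right, orange) with the Zfp143 siRNA in uninduced cells; brackets give the number tested and dashed lines the share over all 15030 tested genes (17.1% lower, 15.4% higher). Glycolysis, immediate early genes and NRF2 targets reach far past the right line, and kinesins, ZNF143 partners and chromatin modifiers past the left.

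Hypoxia targets overlap with glycolysis in biology and moved the same way: 20 of 33 rose and 3 fell (median 1.058). The oxygen-sensing hydroxylase genes are themselves targets of HIF. Egln1 went from 93, 77.6 and 75.5 to 266, 261 and 299 CPM (log2 fold change 1.75, SE 0.12; edgeR adjusted p = 1.96e-07) and Egln3 from 74.8, 59.3 and 72.1 to 229, 209 and 232 CPM (1.7, SE 0.112). Adm, of the vasodilator peptide adrenomedullin, went from 3.69, 2.25 and 2.96 to 36, 34.7 and 38.3 CPM (3.61, SE 0.213). In each, the lowest knockdown library was above the highest control. Hilpda (2.77), of a lipid droplet protein, Ankrd37 (3.18) and Ak4 (1.66), of a mitochondrial adenylate kinase, rose as well. Bnip3, of a receptor for mitophagy, was at 152, 129 and 274 and 524, 523 and 519 CPM (1.5, SE 0.215; edgeR adjusted p = 0.000151). Hif1a, the oxygen-regulated subunit of HIF, fell (-0.49, SE 0.157; adjusted p = 0.0267), but the call was lost with 1 library left out (largest adjusted p 0.105). Vegfa, a classical target, had overlapping groups (865, 878 and 740.3 and 759.9, 819 and 849.9 CPM; -0.03, SE 0.143; edgeR adjusted p = 0.891). With control replicate 3 left out the list had 20 higher and 2 lower.

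Targets of NRF2, the regulator of the antioxidant response, rose in 22 of 33 cases, with 1 lower (median 0.606). Hmox1, of heme oxygenase 1, had 868, 689.7 and 962 CPM in controls and 2970.4, 2696 and 2762 CPM in knockdown libraries (log2 fold change 1.74, SE 0.163; edgeR adjusted p = 3.27e-06). Gclm, which encodes the modifier subunit of the rate-limiting enzyme of glutathione synthesis, went from 134, 128 and 137 to 414, 469 and 437 CPM (1.73, SE 0.132). Srxn1, of sulfiredoxin, went from 267, 207 and 237 to 596, 604 and 573 CPM (1.32, SE 0.118). The 2 groups were well apart in all of them. Osgin1 (1.75), Cbr3 (1.31) and Mafk (1.11), of a partner protein of NRF2, also rose. Nqo1, often used as the reporter of this response, overlapped between groups because control replicate 3 was high (195, 173 and 349.9 and 364, 296 and 316 CPM; 0.44, SE 0.202; edgeR adjusted p = 0.109). Nfe2l2, of NRF2 itself, rose by a small amount (0.33, SE 0.116), and this call was lost with 1 library left out (largest adjusted p 0.137). Glutathione S-transferases, close paralogs with shared reads, had 7 of 19 higher; the number was 12 without control replicate 3 and 4 without knockdown replicate 1. The NRF2 list without control replicate 3 had 26 higher and 1 lower.

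Heat shock proteins of the cytosol rose: 16 of 30 members were higher and 2 lower (median 0.467). Hspa1b, the stress-inducible HSP70, had 32.5, 24.6 and 21.2 CPM with the control siRNA and 359, 352 and 355 CPM with the Zfp143 siRNA, a 13.6-fold rise (log2 fold change 3.76, SE 0.179; edgeR adjusted p = 1.74e-08). Its near-identical neighbour Hspa1a went from 2.17, 1.81 and 2.23 to 15.2, 15.3 and 17.7 CPM (2.95, SE 0.249), and the split of reads between the pair is uncertain. Co-chaperones that work with HSP70 rose beside it: Dnajb1 from 95.3, 76.4 and 97.5 to 293, 293 and 297 CPM (1.71, SE 0.114) and Bag3 from 71.8, 57.9 and 50.5 to 137, 149.9 and 143 CPM (1.25, SE 0.167). Cryab, of a small heat shock protein abundant in muscle, rose by 2.25 (SE 0.137). Hsp90aa1, of inducible HSP90, was not called (1496, 1662 and 3465 and 3044, 3389 and 2874 CPM; adjusted p = 0.145), since control replicate 3 was as high as the knockdown libraries. Hsf1, which encodes the transcription factor of the heat shock response, was level (0.14, SE 0.161; edgeR adjusted p = 0.527). Without control replicate 3 the counts were 19 and 2. The chaperonin and prefoldin genes, which fold actin and tubulin, held no call in 14 members by edgeR, with 0 at an unadjusted p under 0.05 and 0 by DESeq2 or limma-voom; without control replicate 3 there were 3, all higher.

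Immediate early genes and the feedback genes of ERK signalling rose in 33 of 44 cases and fell in 2 (median 0.949). Maff, of a small Maf protein, had 37.2, 30.5 and 35.3 CPM in controls and 278, 229 and 277 CPM in knockdown libraries (log2 fold change 2.93, SE 0.134; edgeR adjusted p = 7.91e-09). Dusp5, of a phosphatase that switches off nuclear ERK, went from 23.9, 21 and 19.4 to 108, 90 and 99.1 CPM (2.21, SE 0.127). Etv4, of an ETS factor downstream of ERK, went from 9.35, 6.53 and 6.96 to 38.2, 27.9 and 38 CPM (2.19, SE 0.189). No library of one group reached the other in these genes. Ier3 (2.01), Dusp1 (1.81), Dusp10 (1.26) and Fos (1.83, SE 0.36) rose as well. Jun rose by less (0.6, SE 0.164), and Egr1, the textbook early gene, did not pass the test (107, 88.3 and 57.3 and 90.3, 79.5 and 94.1 CPM; edgeR adjusted p = 0.836). Among the dual-specificity phosphatases as a family 9 of 20 rose and 3 fell. The early gene counts without control replicate 3 were 31 and 2, and with the length trend removed 37 and 2.

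Ligands of the EGF receptor, which acts upstream of ERK, were higher too. Hbegf went from 10.3, 12 and 9.26 to 52.8, 44.3 and 52.5 CPM (log2 fold change 2.24, SE 0.149; edgeR adjusted p = 1.43e-07), Areg from 63.8, 66.4 and 61.7 to 173, 172 and 180.3 CPM (1.45, SE 0.123) and Ereg from 56.8, 68.8 and 85.5 to 220.3, 225 and 206 CPM (1.63, SE 0.168). All knockdown libraries exceeded all controls for the 3 ligands. Of the 48 growth factors and receptor tyrosine kinases measured, 16 rose and 8 fell (17 and 8 without control replicate 3); among the fallen were Fgf21 (-2.03), a secreted stress hormone, Gfra1 and Nrp2 (-1.19), a co-receptor for semaphorins and VEGF. Pdgfra, a receptor that myoblasts hold at a low level, rose from 47.7, 41.7 and 38.8 to 67.5, 80.8 and 66.6 CPM (0.75, SE 0.13). Errfi1, of an intracellular inhibitor of the EGF receptor, rose by 1.35 (SE 0.119).

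Of NF-kappaB targets, cytokines and chemokines, 19 of 44 rose and 4 fell (median 0.429; 21 and 5 without control replicate 3). The feedback inhibitors Tnfaip3, of the ubiquitin editor A20, and Nfkbia, of IkappaB alpha, went from 16.2, 12.3 and 11.3 to 71.9, 71.6 and 75.5 CPM (log2 fold change 2.45, SE 0.14; edgeR adjusted p = 3.45e-08) and from 28.9, 28.5 and 29.4 to 89.9, 85 and 87.1 CPM (1.59, SE 0.144). The myokine genes Lif (14.6, 14.4 and 13.5 and 50.1, 47.9 and 49 CPM; 1.79, SE 0.14) and Il6 (4.35, 6.59 and 7.42 and 20.3, 14.1 and 19.4 CPM; 1.56, SE 0.285) rose, as did Ccl2 (1.72), a chemokine of monocytes, and Il33 (2.49), an alarmin. Socs3, of an inhibitor of cytokine signalling, rose by 1.43 (SE 0.143).

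Interferon response genes were low in both groups, and 25 of 57 rose while 1 fell (median 0.872). Ifit1, which binds foreign RNA, had 1.14, 1.26 and 0.985 CPM with the control siRNA and 9.07, 10.4 and 8.19 CPM with the Zfp143 siRNA (log2 fold change 3.02, SE 0.191; edgeR adjusted p = 3.5e-08). Isg15, a ubiquitin-like modifier, went from 1.47, 1.98 and 2.5 to 8.5, 6.55 and 7.57 CPM (1.94, SE 0.216), and Cxcl10, a chemokine, from 0.109, 0.11 and 0.263 to 1.54, 1.3 and 1.19 CPM (3.06, SE 0.551). The groups were apart in each. The remaining 31 members were not called, Ifit2 among them (means 10.0 and 10.4 CPM, log2 fold change 0.06, SE 0.211, edgeR adjusted p = 0.863). The counts without control replicate 3 were 28 and 1. Of 26 antigen presentation and complement genes 6 rose (23.1%) and 2 fell (7.69%), against 15.4% and 17.1% of all tested genes. Their counts were 9 and 2 without control replicate 3 and 7 and 3 with the length trend removed. The complement genes C3 (1.54, SE 0.217) and C1s1 (1.34, SE 0.137) rose, and Nlrc5, of a regulator of antigen presentation genes, fell (-1.26, SE 0.281).

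Genes that act on the matrix around the cell changed in both directions. Plau, of the urokinase plasminogen activator, had 17.1, 20.1 and 18.3 CPM in controls and 118, 94.2 and 117 CPM in knockdown libraries (log2 fold change 2.57, SE 0.121; edgeR adjusted p = 7.91e-09). Lox, of the enzyme that crosslinks collagen, went from 105, 117 and 104 to 464, 407 and 497 CPM (2.07, SE 0.159). The metalloproteinase genes Mmp11 and Mmp19 fell instead, from 479, 453 and 344 to 108, 111 and 109.9 CPM (-1.96, SE 0.141) and from 144, 178 and 171 to 52.5, 56 and 55 CPM (-1.59, SE 0.112). Neither direction had overlapping groups in these 4 genes. Of all 54 proteases, inhibitors and crosslinkers 15 rose (27.8%) and 11 fell (20.4%), against 15.4% and 17.1% of all tested genes. Lower calls were 7 without knockdown replicate 3, and with the length trend removed 19 rose and 7 fell. Collagen genes, 26 of 29 of which lie in the longest bin, went against the length trend: 11 rose and 2 fell (9 and 4 without control replicate 3; 18 and 1 with the length trend removed). Col8a1, of a short-chain collagen, went from 13.2, 12.9 and 14.5 to 46.8, 45.6 and 48.7 CPM (1.8, SE 0.114) and Col5a3 from 9.89, 9.71 and 5.58 to 35, 28.5 and 34.7 CPM (1.95, SE 0.229). The abundant fibrillar gene Col3a1 fell from 1219, 1249.9 and 981 to 592, 505 and 647 CPM (-0.98, SE 0.154; edgeR adjusted p = 0.000282). Thbs1 (1.85) and Sdc4 (1.16), of an adhesive glycoprotein and a heparan sulfate proteoglycan, rose.

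Of actin cytoskeleton genes and targets of SRF 16 of 45 rose and 7 fell (20 and 7 without control replicate 3; 4 fell without control replicate 1). Acta2, the smooth muscle actin gene, went from 12.6, 11 and 9 to 35.3, 31.5 and 41.1 CPM (log2 fold change 1.72, SE 0.16; edgeR adjusted p = 2.86e-06), Tagln, of transgelin, from 0.815, 0.384 and 0 to 3.37, 3.48 and 2.94 CPM (2.93, SE 0.479) and Cnn2, of calponin 2, from 40.2, 30.7 and 31.3 to 97.6, 69 and 93.4 CPM (1.35, SE 0.167). Of these, Acta2 is also 1 of the 4 measured smooth muscle markers given above. Flnc, of the muscle filamin, fell from 1121, 1109 and 639 to 302, 343 and 316 CPM (-1.58, SE 0.21), and Myh10, of a nonmuscle myosin, by 1.05 (SE 0.14). All 7 fallen members lie in the longest bin, and with the length trend removed 18 rose and 3 fell.

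Cholesterol and lysosome genes rose in smaller numbers, while other lipid genes did not. Of 31 fatty acid and glycerolipid synthesis genes 5 rose and 10 fell (median -0.179). Only 1 was higher without control replicate 2, and with the length trend removed 5 rose and 8 fell. Of cholesterol synthesis and uptake genes 12 of 28 rose and 1 fell (13 and 2 without control replicate 3). Insig1, of a sterol sensor, went from 12.5, 13.8 and 14.6 to 30, 34.1 and 30.7 CPM (log2 fold change 1.21, SE 0.114; edgeR adjusted p = 2.85e-06) and Npc2, which carries cholesterol out of lysosomes, from 375, 350.4 and 520.1 to 1307, 1087 and 1170.5 CPM (1.52, SE 0.158). Of lysosome genes 14 of 53 rose and 4 fell (19 and 5 without control replicate 3; 9 and 2 without knockdown replicate 3), among them Gla (1.0) and Hexa (0.61), of hydrolases. Tfeb, of the factor that governs these genes, had overlapping groups (-0.15, SE 0.254).

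Stress programmes of protein synthesis went the other way from the heat shock genes. In the integrated stress response 13 of 31 members fell and 1 rose (median -0.353), the riser being Atf4 itself, of its central transcription factor (846, 795 and 948 and 1302, 1249 and 1254 CPM; log2 fold change 0.56, SE 0.124; edgeR adjusted p = 0.00345). Chac1, a glutathione-degrading target of ATF4, had 269, 259 and 231 CPM in controls and 62, 50.2 and 62.7 CPM in knockdown libraries (-2.12, SE 0.168). Fgf21 went from 41.8, 48.5 and 40 to 9.19, 10.9 and 11.8 CPM (-2.03, SE 0.146), and Ddit3, of the pro-apoptotic factor CHOP, from 311, 376 and 494 to 206, 192 and 207 CPM (-0.97, SE 0.146). Every control exceeded every knockdown library in these 3 genes. The amino acid transporter genes Slc7a5 (-1.37) and Slc7a1 (-0.93) fell too. Asns, of asparagine synthetase, was not called (462, 476 and 731 and 483, 460.4 and 474 CPM; edgeR adjusted p = 0.271). Without control replicate 3 the counts were 16 lower and 1 higher.

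In the unfolded protein response of the endoplasmic reticulum 13 of 30 members fell and the remaining 17 did not pass the test (median -0.334). Hspa5, which encodes BiP, the main chaperone of this compartment, had 2970.3, 3488 and 4488 CPM in controls and 1574, 1847 and 1669.7 CPM in knockdown libraries (log2 fold change -1.1, SE 0.155; edgeR adjusted p = 0.000117). Xbp1, of the spliced transcription factor of this response, went from 148, 175 and 185 to 50.9, 48.7 and 55.7 CPM (-1.71, SE 0.115). Herpud1 (-0.91) and Sel1l (-1.14), which act in degradation from this compartment, and the sensor genes Ern1 (-0.86) and Atf6 (-0.48) fell. The groups did not overlap in any of the 6 genes. Without control replicate 3 there were 13 lower and 1 higher, and 7 of the 13 fallen genes lie in the longest bin; 11 fell with the length trend removed. Of cytosolic aminoacyl-tRNA synthetases 7 of 23 fell and 1 rose (4 lower without knockdown replicate 1). Eprs1, of the glutamyl-prolyl enzyme, was highest in control replicate 3 (875, 951 and 1519.6 and 584, 626 and 546 CPM). In serine, glycine and one-carbon metabolism 6 of 23 fell (26.1%) and 1 rose (4.35%), against 17.1% and 15.4% of all tested genes. Among the fallen were Aldh1l2 (-1.24), Mat2a (-1.22), of methionine adenosyltransferase, Mtr (-0.99) and Psph (-0.84).

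The selenocysteine machinery is of interest because ZNF143 is known to act on the gene of the matching transfer RNA. Its genes were counted together with those of selenoproteins. Of these 26 genes 6 were lower (23.1%) and 3 higher (11.5%), against 17.1% and 15.4% of all tested genes. There were 7 higher without control replicate 3, and lower calls ran from 2 to 8 over the other tests, scalings and filters. Sepsecs, which makes selenocysteine on its transfer RNA, went from 49.1, 61.4 and 53.9 to 30, 32.7 and 27.4 CPM (log2 fold change -0.87, SE 0.158; edgeR adjusted p = 0.000844). Pstk, of the kinase of the step before, went from 9.07, 9.33 and 10.4 to 5.65, 5.14 and 6.61 CPM (-0.72, SE 0.167). Both had groups that were apart. Gpx4, an abundant selenoprotein, was not called (-0.08, SE 0.19; edgeR adjusted p = 0.779). For small nuclear RNA and RNA polymerase III transcription, the oldest known field of ZNF143, 10 of 36 fell and 2 rose (4 lower without knockdown replicate 1; 6 higher without control replicate 3; 6 lower with the length trend removed). Polr3e, of a polymerase III subunit, went from 31.7, 33.5 and 25.6 to 14.7, 17.4 and 16.6 CPM (-0.9, SE 0.133) and Pou2f1, of the factor OCT1 that binds these promoters, from 41, 44.1 and 31.6 to 16.4, 25.3 and 20.6 CPM (-0.91, SE 0.19). Mepce, of the enzyme that caps 7SK RNA, rose from 53.3, 51 and 44.1 to 127, 118 and 117 CPM (1.28, SE 0.115; edgeR adjusted p = 1.91e-06). Snapc1, Snapc2 and Snapc3, of the complex that recognises these promoters, were not called. Small nuclear RNAs have no poly(A) tail and were not measured well by these libraries.

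Nuclear genes with long transcripts fell in large numbers. Among ZNF143 partners, CTCF and cohesin 11 of 22 fell and the remaining 11 did not pass (median -0.464); 12 of the 22 lie in the longest bin and 9 of these fell. Ctcf went from 93.6, 107 and 92.8 to 63.5, 72.3 and 70.2 CPM (log2 fold change -0.51, SE 0.12; edgeR adjusted p = 0.00501), Hcfc1, of a cofactor of ZNF143, from 184, 170.2 and 133 to 98.7, 115 and 97.8 CPM (-0.64, SE 0.153) and Nipbl, of the cohesin loader, from 144, 164 and 114 to 69.2, 104 and 77.1 CPM (-0.75, SE 0.182). The groups were apart, and in Nipbl the lowest control lay close to the highest knockdown library. Rad21, of the cohesin ring, was not called (-0.21, SE 0.127; edgeR adjusted p = 0.236). With the length trend removed 3 members were lower and 1 higher; without control replicate 3 there were 9 lower.

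Chromatin modifiers fell in 32 of 68 cases and rose in 2 (median -0.420). Of the 46 in the longest bin 29 fell, against 38.8% of all protein-coding genes of that bin, and of the other 22 only 3 fell. With the length trend removed the list had 12 lower and 6 higher. Setd1b, of a histone methyltransferase, went from 51.3, 44.3 and 26.1 to 14.5, 16.9 and 13.3 CPM (log2 fold change -1.44, SE 0.255; edgeR adjusted p = 0.000723). All its knockdown libraries lay below all controls. Nuclear pore and transport genes had 17 of 47 lower (16 of them in the longest bin; 6 with the length trend removed; 11 without knockdown replicate 3) and kinesins 16 of 29 lower and 2 higher (8 and 4 with the trend removed). For these lists the calls moved with transcript length.

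The linker histone genes H1f0 and H1f2 have short transcripts and fell all the same: H1f0 from 784, 842 and 883 to 294, 288 and 313 CPM (log2 fold change -1.49, SE 0.119; edgeR adjusted p = 7.89e-07) and H1f2 from 29.9, 32.3 and 29.6 to 10.7, 9.56 and 10.2 CPM (-1.59, SE 0.134). Most replication-dependent histone messages lack a poly(A) tail, and 25 of 54 written histone genes were measured. Of these, 5 were lower (20%), near the 17.1% of all tested genes (2 without knockdown replicate 2, 3 without control replicate 3).

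Zinc finger genes named Zfp, the family of Zfp143, fell in 108 of 359 cases and rose in 17, with a median of -0.380. Of 84 members in the longest bin 40 fell, and of the other 275 members 68 fell. Zfp961 went from 13.9, 15.9 and 28.4 to 4, 4.25 and 3.96 CPM (log2 fold change -2.25, SE 0.238; edgeR adjusted p = 1.02e-05), Zfp827 from 59.5, 66.9 and 39 to 20, 22.4 and 20.1 CPM (-1.4, SE 0.174) and Zfp746 from 40.4, 37.6 and 35.3 to 16.6, 17.7 and 18.8 CPM (-1.1, SE 0.136). Zfp36, which belongs to the early response and encodes an RNA-binding protein, rose from 17.9, 17 and 13.9 to 41.5, 35.2 and 42.9 CPM (1.29, SE 0.159). With the length trend removed 75 were lower and 28 higher; without control replicate 3 the counts were 94 and 27, and without knockdown replicate 3 there were 67 lower. Paralogs in gene clusters of this family share sequence, so single members are less certain than the family.

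Ribosome biogenesis genes fell in 21 of 63 cases and rose in 2 (median -0.235; 15 lower with the length trend removed, 9 lower without knockdown replicate 1, 5 higher without control replicate 3). Nop56, of a box C/D nucleolar protein, went from 529, 605 and 1001 to 384, 386 and 355 CPM (log2 fold change -0.92, SE 0.184; edgeR adjusted p = 0.00165), Nop14 from 239, 271 and 262 to 165, 189 and 173 CPM (-0.55, SE 0.11) and Nat10, of an RNA acetyltransferase, from 92.4, 88.6 and 76.3 to 58.7, 59 and 58 CPM (-0.55, SE 0.107). Nop56 was far higher in control replicate 3 than in the other controls. Npm1, the abundant nucleolar protein gene, was not called with all libraries (-0.15; 1622, 1790.5 and 3754 and 2159, 2199 and 2088 CPM; edgeR adjusted p = 0.671), and was higher without control replicate 3 (0.34; adjusted p = 0.038).

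Counts for several housekeeping groups depended on control replicate 3. Cytosolic ribosomal protein genes had 3 of 79 called higher with all libraries, with overlapping levels such as 1166, 1137 and 2315 and 1665, 1380.5 and 1565 CPM for Rps3. There were 0 without control replicate 2. Without control replicate 3 there were 61 higher, and their median moved from 0.109 to 0.467. The nuclear-encoded respiratory chain had 4 of 73 higher, and 21 without that library; 2 were higher without control replicate 2. The proteasome had 2 of 43 lower, and 11 higher beside 2 lower without control replicate 3. DNA replication genes had 7 higher and 4 lower of 51, 18 and 3 without it, 4 higher without knockdown replicate 1 and 8 lower without control replicate 1. Ppargc1a and its relative Ppargc1b (-1.72, SE 0.286) fell, as did Nrf1, of a regulator of respiratory genes (40, 41.9 and 36.8 and 21.6, 25.7 and 21.7 CPM; -0.78, SE 0.135; edgeR adjusted p = 0.000575). The list of mitochondrial biogenesis, import and dynamics had 9 of 40 lower (22.5%) and 2 higher (5%), against 17.1% and 15.4% of all tested genes. There were 4 lower without knockdown replicate 1 and 5 higher without control replicate 3.

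Of 54 mitosis genes 20 fell and 1 rose (median -0.359; 22 and 3 without control replicate 3, 17 and 2 with the length trend removed). Bub1b, of a spindle checkpoint kinase, went from 54.4, 59 and 68.7 to 36.6, 39.4 and 34.8 CPM (log2 fold change -0.72, SE 0.129; edgeR adjusted p = 0.000783), Kif20a, of a cytokinesis motor, from 26.7, 27.7 and 32.2 to 19.5, 17.7 and 17.6 CPM (-0.66, SE 0.123) and Ccnb1, of cyclin B1, from 71.6, 90.2 and 150.2 to 50.9, 61.2 and 48.1 CPM (-0.96, SE 0.219). The groups were apart in each. Fanconi and recombination repair genes had 12 of 43 lower (6 without knockdown replicate 3, 8 with the length trend removed). Among p53 and its targets 12 of 29 rose and 5 fell: Cdkn1a, of the cell cycle inhibitor p21, went from 536, 448 and 415 to 1066, 1067 and 1101 CPM (1.21, SE 0.129), Btg2 rose by 1.37 (SE 0.118) and Rrm2b fell by 1.34 (SE 0.2), while Trp53 itself was not called (-0.11, SE 0.148; edgeR adjusted p = 0.621).

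Genes of the Hedgehog and Wnt pathways had calls in both directions. Of 16 measured Hedgehog genes 7 fell and 1 rose (4 lower without control replicate 1, 10 without control replicate 3, 3 with the length trend removed). Beside Hhip, the co-receptor genes Boc (25.1, 26.2 and 16.9 and 13.5, 12.6 and 13.4 CPM; log2 fold change -0.79, SE 0.164) and Cdon (56.2, 60.5 and 46.9 and 33.2, 37.3 and 37.8 CPM; -0.6, SE 0.119) fell; both proteins are known to favour muscle differentiation. Smo, the transducer, was not called (-0.13, SE 0.139; edgeR adjusted p = 0.492). Of 41 Wnt pathway genes 7 rose (17.1%) and 9 fell (22%), which is near the 15.4% and 17.1% of all tested genes. The receptor gene Fzd4 fell from 19.2, 21.7 and 18.9 to 4.45, 5.31 and 5.2 CPM (-2.0, SE 0.18), and Fzd5 rose from 10.4, 10.8 and 8.87 to 20.7, 22 and 20.2 CPM (1.06, SE 0.124). Of 42 insulin and IGF pathway genes, 27 of which lie in the longest bin, 6 rose and 11 fell (10 of these in that bin; 9 and 6 with the length trend removed; 3 higher without control replicate 2). Irs2 rose (1.1, SE 0.171) while Igf1r (-0.64), Insr (-0.84) and Pik3r1 (-1.37) fell. Peg10, an imprinted gene of retrotransposon origin, fell from 68, 71.7 and 53.1 to 15.6, 18.2 and 18.3 CPM (-1.89, SE 0.161; edgeR adjusted p = 1.44e-06).

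Noncoding RNAs were counted by biotype. Of 1850 tested lncRNA genes 340 (18.4%) rose and 125 (6.76%) fell, with a median of 0.229. Among the 3758 tested genes of lowest mean level, of any biotype, 17.8% rose and 5.16% fell (median 0.275), which is close to these shares. Pseudogenes had 12 of 282 in each direction. Of 23 measured lncRNAs with a known role 5 rose (21.7%) and 6 fell (26.1%), against 15.4% and 17.1% of all tested genes. There were 2 higher without control replicate 1. Xist, which silences the inactive X chromosome, had 3973, 5009.8 and 3129.8 CPM in controls and 1484, 2279 and 1511 CPM in knockdown libraries (log2 fold change -1.2, SE 0.227; edgeR adjusted p = 0.00125). Its activator Jpx went from 4.62, 3.84 and 5.65 to 1.31, 2.3 and 1.3 CPM (-1.52, SE 0.282), and Firre, which binds CTCF-rich loci, from 49.5, 51.2 and 28.6 to 18.1, 21 and 18.1 CPM (-1.18, SE 0.193). All controls lay above all knockdown libraries. Neat1, the scaffold of paraspeckles, fell by 0.78 (SE 0.192). Mir100hg, a microRNA host gene, rose by 1.17 (SE 0.201). Small nucleolar RNA host genes rose in 6 of 18 cases with 1 lower, and in 11 without control replicate 3: Snhg12 went from 79.9, 71.8 and 103 to 151, 154 and 153 CPM (0.85, SE 0.132; edgeR adjusted p = 0.000261).

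The element that ZNF143 binds can be read at some of these promoters. Promoter sequences (250 bases before to 50 after the start, from RefSeq on build GRCm38.p6) were matched by symbol for 10384 of 15007 tested symbols. They were searched on both strands for the core and the upstream extension of the ZNF143 element. The 2 share 3 bases when they lie side by side, which gives an element of 19 bases; 64 of the 88 tested genes that hold both hold them in this form. Over all 32851 promoters of the table the core was found in 1.88%, the extension in 1.81% and both in 0.295%. Shown are the 4 genes of smallest p among called genes that hold both motifs upstream of the start within 1 window of 60 bases, 5′ to 3′ on the strand of the gene, with the joint element in capitals. In Zfp111 and Plaa it lies on the opposite strand. None of these windows overlaps an annotated exon.
Prdm15 (chr16:97851851-97851910, minus strand): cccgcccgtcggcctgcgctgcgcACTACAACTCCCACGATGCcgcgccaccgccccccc
Ubl3 (chr5:148552881-148552940, minus strand): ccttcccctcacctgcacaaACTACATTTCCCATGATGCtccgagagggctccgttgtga
Zfp111 (chr7:24208181-24208240, minus strand): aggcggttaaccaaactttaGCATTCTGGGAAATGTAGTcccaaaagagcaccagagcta
Plaa (chr4:94603438-94603497, minus strand): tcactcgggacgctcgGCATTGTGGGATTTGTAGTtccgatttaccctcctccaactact

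Of these genes Prdm15, itself a zinc finger gene, went from 54, 52.1 and 44.3 to 16.6, 20 and 17.3 CPM (log2 fold change -1.48, SE 0.138; edgeR adjusted p = 2.74e-06), Zfp111 from 13, 15.5 and 14 to 4.97, 8.03 and 5.14 CPM (-1.23, SE 0.181) and Plaa, of a ubiquitin-binding protein, from 812, 992 and 1125 to 521, 548 and 540.3 CPM (-0.86, SE 0.148). Ubl3, of a ubiquitin-like protein, rose although it holds the same element, from 43, 46.4 and 43.6 to 71.6, 77.3 and 73.1 CPM (0.74, SE 0.105; edgeR adjusted p = 0.000125). Of the 88 genes with both motifs 21 fell (23.9%) and 6 rose (6.82%), and the other 61 did not pass the test. Over all genes with a promoter entry 18.7% fell and 15.3% rose. Of the 64 genes with the joint element 13 fell and 4 rose. Their median log2 fold change was -0.088, against -0.059 over all genes with an entry. Further fallen genes among the 88 were Fem1a (-1.26), Ubr2 (-1.02), Zfr (-0.96), Bub1b, Nutf2 (-0.61) and Fto (-0.57), and Sgk1 rose (1.42).

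Read over all genes with a promoter entry, where 15.3% rose and 18.7% fell (median log2 fold change -0.059), the 732 genes with either ZNF143 motif had 8.06% higher and 22.7% lower (median -0.158). The 3 other motifs common in promoters of housekeeping genes were counted beside them. The NRF1 motif (230 genes) had 9.57% higher and 19.1% lower, the ETS motif (CCGGAAGTG, 499 genes) 9.42% and 19.4%, and the YY1 motif (290 genes) 7.24% and 25.9%. Of the 732 genes 16 also hold the NRF1, 20 the YY1 and 37 the ETS motif. Within 100 bases before the start, 436 genes with either ZNF143 motif had a median of -0.164. A match is a description of these letters and no evidence of binding.

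**Figure D4:**
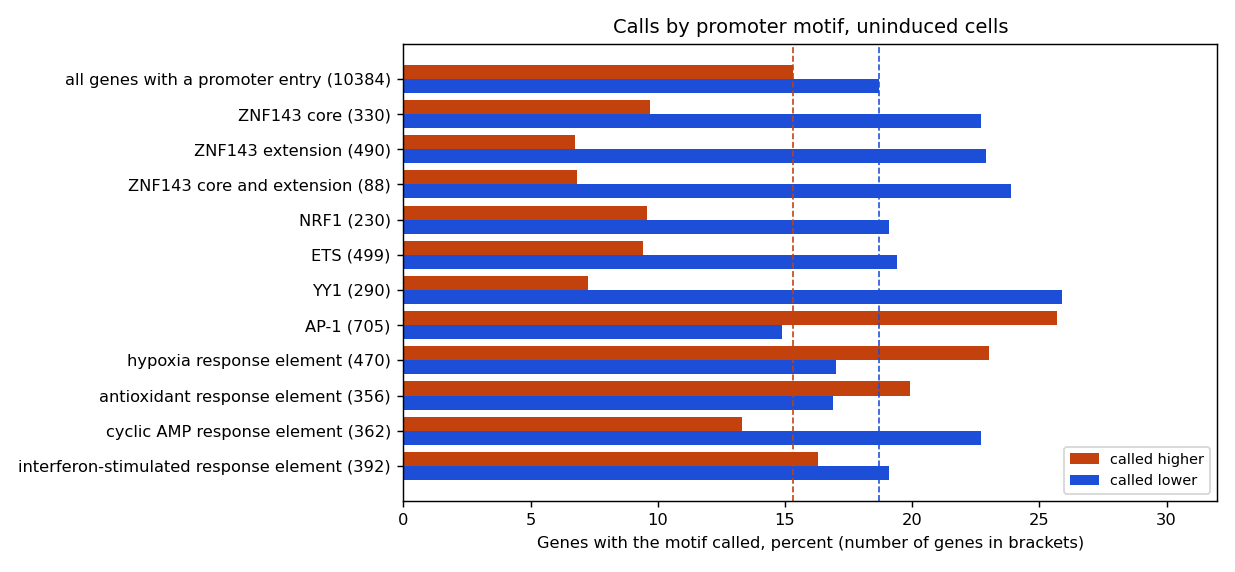
Percent of genes called higher (orange) or lower (blue) among genes whose 300-base promoter window holds each motif, with the number of genes in brackets; dashed lines mark all 10384 genes with a promoter entry (15.3% higher, 18.7% lower). Genes with ZNF143 motifs lie to the left of the orange line as do those with NRF1, ETS and YY1 motifs, and genes with an AP-1 motif lie beyond it at 25.7%.

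The motif of AP-1 (TGANTCA), the factor made of Fos and Jun proteins, was searched beside them as was a set of stress motifs chosen after the gene lists had been seen. Of 705 genes with an AP-1 motif 25.7% rose and 14.9% fell (median 0.06). Of 470 with the hypoxia motif TACGTG 23% rose and 17% fell, of 356 with the antioxidant motif of NRF2 19.9% rose and 16.9% fell, and of 392 with the interferon-stimulated motif 16.3% rose and 19.1% fell. For the cyclic AMP motif TGACGTCA, in 362 genes, 13.3% rose and 22.7% fell. The motifs were found in 7.81%, 3.23%, 3.04%, 3.44% and 1.79% of all promoters, in the order given. All were searched on both strands. Of the 16 genes with the endoplasmic reticulum stress element 5 fell, 3 of them among the 8 that belong to the unfolded protein response list. The element lies in 0.119% of all promoters. For 5 lists, a member that holds the motif of its list upstream, chosen for the smallest p among those called with each library left out in turn, is shown, with the motif in capitals.
Mmp13, AP-1 (chr9:7272453-7272512, plus strand): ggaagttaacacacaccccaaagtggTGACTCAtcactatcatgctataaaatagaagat
Maff, cyclic AMP motif (chr15:79347460-79347519, plus strand): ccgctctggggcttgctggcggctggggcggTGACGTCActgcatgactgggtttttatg
Ankrd37, hypoxia motif (chr8:46000041-46000100, minus strand): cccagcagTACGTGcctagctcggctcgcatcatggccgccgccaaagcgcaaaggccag
Ifit1, interferon motif (chr19:34640760-34640819, plus strand): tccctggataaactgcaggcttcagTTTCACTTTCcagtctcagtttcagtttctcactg
Dnajc3, endoplasmic reticulum stress element (chr14:118937807-118937866, plus strand): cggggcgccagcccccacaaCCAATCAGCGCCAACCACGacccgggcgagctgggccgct

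Mmp13, a collagenase gene, rose by 2.53 on the log2 scale and Dnajc3, of a co-chaperone of BiP, fell by 0.731; Maff, Ankrd37 and Ifit1 are described above. Of the 43 interferon response genes with a promoter entry 23 hold the interferon motif and 9 of these rose. Over all 57 measured genes of that list 43.9% rose. Among members with a promoter entry, 5 of 25 hypoxia targets and 1 of 27 NRF2 targets held their motif. The AP-1 motif lay in 4 of 33 matrix protease genes and the cyclic AMP motif in 3 of 34 early genes. Heat shock and NF-kappaB motifs, also searched, lay in 3 of 24 and 5 of 33 members of those lists. Of all 59 and 55 genes with them 18.6% and 20% rose, and 6.78% and 14.5% fell.

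Many genes differed in their response before and after induction. The time since the transient transfection and the medium changed together with induction, so these cannot be told apart here. Over the same genes, 1427 genes (9.49%) were called in cells induced for 5 days, 560 higher (3.73%) and 867 lower (5.77%), and edgeR called a difference between the 2 effects for 3375 genes (22.5%). Of these, 1169 rose and 1124 fell in uninduced cells without a call after induction, 338 were called in opposite directions, and 50 in the same. A further 449 were called only after induction, and 245 in neither state. The 2 comparisons share no library but share the model's estimate of spread. Zfp143 itself did not pass the test on day 5 (log2 fold change -0.18, SE 0.181; edgeR adjusted p = 0.646), and its effect differed between the states by 1.22 (SE 0.257; adjusted p = 0.00358).

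The 10 genes of smallest p for this difference all had a lower log2 fold change after induction than before it. Prdm1, of the repressor BLIMP-1, rose by 3.59 before induction (levels 2.93, 3.13 and 2.82 and 34, 37.1 and 36.1 CPM) and had -0.67 (SE 0.169) after it. Plau (2.57 and -0.61), Maff (2.93 and -0.56), Gadd45b (3.0 and -0.3), Csrnp1 (2.41 and -0.68), Tnfaip3 (2.45 and -0.53), Egln3 (1.7 and -1.54) and Cryab (2.25 and -0.77) had these log2 fold changes before and after induction. A pair of muscle genes is among them: Tnnt2, of cardiac troponin T, had 4.13, 4.99 and 4.73 and 26.9, 23.7 and 30.2 CPM before induction (2.54, SE 0.161) and fell by 1.64 after it, and Pygm, of muscle glycogen phosphorylase, had 2.34 and -2.03. Mitosis genes turned round, with 20 of 54 lower before and 52 higher after induction; Kif20a had -0.66 and 1.54, with a difference of 2.2 (SE 0.172; edgeR adjusted p = 9.58e-07). Some effects had the same direction in both states. Chac1 (-2.12 and -1.65; edgeR adjusted p of the difference 0.199) and Fgf21 (-2.03 and -1.3) were lower in both, Atf3 fell further after induction (-0.74 and -1.67), and cholesterol genes were higher in both, in 12 and 20 of 28 cases; Acat2 had 0.93 and 1.06.

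**Figure D5:**
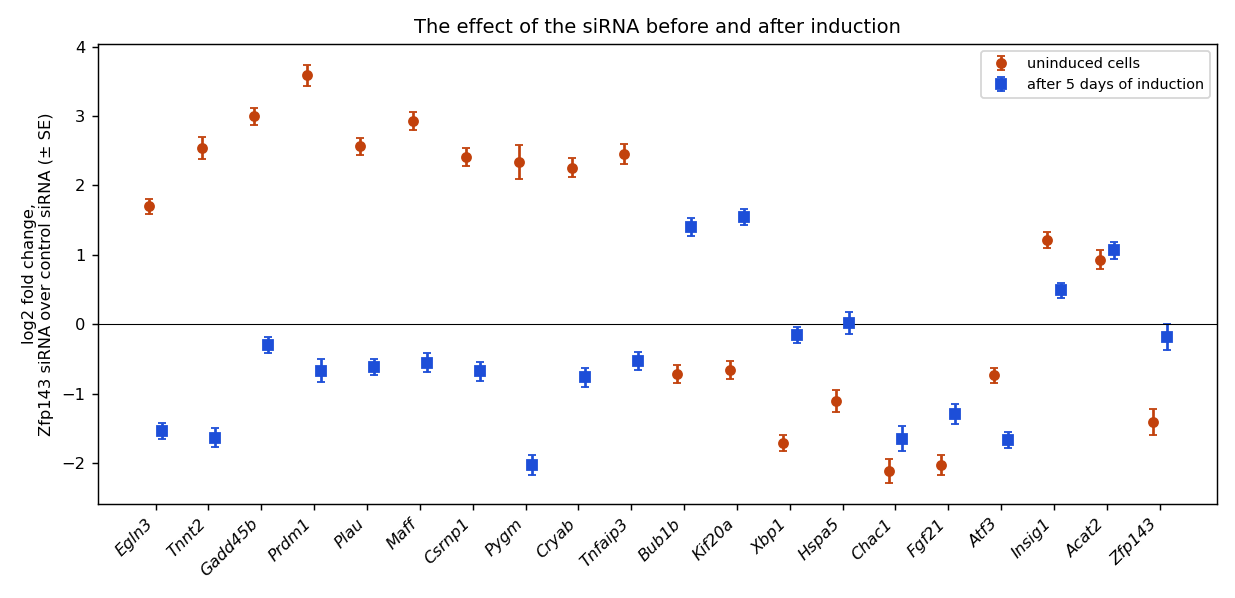
Log2 fold change of the Zfp143 siRNA over the control siRNA for 20 genes, in uninduced cells (orange circles) and after 5 days of induction (blue squares); bars are standard errors of the fit to 3 libraries a group. The 10 genes on the left are high before and at or below 0 after induction, Bub1b and Kif20a the reverse, and Chac1, Fgf21, Atf3, Insig1 and Acat2 keep their direction.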

How the data were processed

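Poly(A)-selected RNA libraries without strand information were sequenced in 12 C2C12 samples. The deposited table holds expected counts per gene (estimated by Salmon and summarised with tximport, per the file name and the submitters' processing notes, which also list fastp 1.0.1, STAR 2.7.11b and GRCm39). The deposited scaled TPM values are treated as a score, since repeated lines take their sum past that of a TPM column, and no printed level comes from them; effective lengths are those the authors deposited. Of 78810 lines 535 repeated identifiers were dropped. Expected counts were rounded to whole numbers, filtered on low counts (minimum count 10, minimum total 15; 15030 genes kept), scaled by TMM and fitted in edgeR 4.0.16 (R 4.3.3) with robust quasi-likelihood tests over 4 group means and all 12 libraries, with 8 residual degrees of freedom and Benjamini-Hochberg adjustment. Alternatives were DESeq2 1.42.0, limma 3.58.1 voom, other scalings and filters, a replicate block and leaving out each library. The test was checked on simulated data without an outlying library or a length trend, so that check does not cover these features of the libraries. Members and lists were chosen with earlier results of these data known. Genes named from those lists are mostly the first written members and those of smallest p. The latter had to stay called with each uninduced library left out, so they are not typical members. Others come from the largest changes, the most abundant called genes, called genes with a motif and the smallest p of the difference between states. Promoter sequences are on GRCm38.p6 and were matched by symbol. Some genes are not reported here.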

Additional observations from a re-analysis of the deposited data

Results flagged for a closer look

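The effect of the Zfp143 siRNA differed between induced and uninduced cells for 3375 of 15030 genes by edgeR's interaction test. For Zfp143 itself the log2 fold change was higher by 1.22 in induced cells. For 10 further genes the log2 fold change was lower in induced than in uninduced cells, with these differences: Egln3 -3.24, Tnnt2 -4.18, Gadd45b -3.30, Prdm1 -4.26, Plau -3.18, Maff -3.48, Csrnp1 -3.09, Pygm -4.37, Cryab -3.02 and Tnfaip3 -2.98.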

How the results depend on the processing

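The lower count moved by over 1.5 times under a test against a fold threshold of 1.2, where 1599 genes were called lower. It did so too without uninduced knockdown replicate 1 (1629 lower) and without uninduced knockdown replicate 3 (1716 lower). Leaving out 1 library at a time gave 1760 to 2918 genes higher, 1629 to 2926 lower and 2523 to 4753 with a difference between states. The median log2 fold change of genes with a ZNF143 motif, -0.158, was -0.101 for the core alone and -0.101 for both motifs together. With the length trend removed, an alternative chosen after seeing the data, 2608 genes were higher and 1913 lower, so 57.7% of calls were higher against 47.3%. The replicate block gave 2414 higher and 2701 lower and 3564 with a difference between states, and Zfp143 at -1.38; same-numbered uninduced libraries had deviations that correlated at 0.021, 0.118 and -0.0364, so the numbers were not taken to pair samples. Zfp143 stayed lower at an adjusted p of at most 0.000969 under these settings. Among genes named in the text, Npm1 ran from -0.362 to 0.341 and Rps3 from -0.179 to 0.425 with 1 library left out; neither was called with all libraries. List medians also turned without control replicate 3, such as the proteasome from -0.034 to 0.18. Depth limits calls for genes at a few counts.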
